A study of Mus musculus with 6 samples.

Results

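Low-methylated 1 kb windows away from promoters were examined in the dentate gyrus of adult mice, a subregion of the hippocampus where new neurons form throughout life. CpG methylation had been measured by reduced representation bisulfite sequencing (RRBS), which reads fragments cut at CCGG and gives, for each cytosine, the percent of reads in which it was methylated. Micro-dissected tissue came from 6 female C57BL/6JRj mice aged 4.5 months, each giving 1 library. Of these, 3 mice had lived for 3 months in an enriched environment (ENR), a large shared enclosure with toys and tunnels, and 3 in standard cages (STD). The genome was divided into fixed 1 kb tiles. A tile was taken as low-methylated and distal when it lay on an autosome, held at least 3 measured cytosines, had every one of them over 2 kb from any annotated transcription start, and averaged 10 to 50% methylation over its cytosines and the 6 libraries. These conditions were met by 11305 tiles with 65322 cytosines. They made up 29.3% of the 38559 autosomal distal tiles, 16.1% of the 70083 autosomal tiles and 15.6% of all 72392 tiles with 3 or more cytosines. These tiles were chosen by their measured mean level, so their levels are given as a description and no test was run on their average. ENR and STD were compared by a test tile by tile and cytosine by cytosine.

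In mammalian tissue most CpGs outside CpG islands are methylated, and CpG islands at active promoters are mostly free of methylation. Between these states lie short CpG-poor stretches of intermediate methylation, which are often found where transcription factors bind at enhancers. Such stretches differ between cell types, and a neuron, an astrocyte and a microglial cell of the same animal can each keep a different set. The libraries were made from whole tissue, so a percentage between 0 and 100 can come from a mixture of cells, from differing alleles or from molecules that vary within a cell type, and these cannot be told apart here. No enhancer map was used, so the tiles were enhancer-like by position and level only.

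The measured stretches of 8 such tiles are printed for what their cytosines show. Capitals mark the CpGs with a value in the table on at least one strand. The first pair came from the genes nearest to the largest numbers of low-methylated distal tiles, the next from a list of astrocyte genes, and Gnas from an imprinted locus. The stretch near Bmper joins an unmethylated and a fully methylated end, and the last 3 are tiles in which the values of the housing groups did not overlap.
Rbfox3 intron, mm10 chr11:118891386-118891645, plus strand: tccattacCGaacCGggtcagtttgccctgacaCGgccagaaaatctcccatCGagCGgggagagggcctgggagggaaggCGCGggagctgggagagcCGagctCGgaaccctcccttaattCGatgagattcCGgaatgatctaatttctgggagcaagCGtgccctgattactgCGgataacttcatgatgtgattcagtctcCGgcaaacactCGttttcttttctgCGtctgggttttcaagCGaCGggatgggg
Bcl11b intron, mm10 chr12:107975144-107975256, plus strand: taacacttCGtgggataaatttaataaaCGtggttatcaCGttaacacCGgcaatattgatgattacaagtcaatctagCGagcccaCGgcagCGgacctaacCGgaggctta
Intergenic, nearest to S100b, mm10 chr10:76248402-76248526, plus strand: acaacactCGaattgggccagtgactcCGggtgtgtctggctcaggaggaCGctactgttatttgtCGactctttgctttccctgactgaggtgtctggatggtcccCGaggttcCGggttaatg
Gnas, mainly exon, mm10 chr2:174299992-174300124, plus strand: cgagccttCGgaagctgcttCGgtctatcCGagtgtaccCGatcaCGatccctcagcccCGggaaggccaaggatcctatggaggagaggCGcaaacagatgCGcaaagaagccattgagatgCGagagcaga
Intergenic, nearest to Bmper, mm10 chr9:23212509-23212764, plus strand: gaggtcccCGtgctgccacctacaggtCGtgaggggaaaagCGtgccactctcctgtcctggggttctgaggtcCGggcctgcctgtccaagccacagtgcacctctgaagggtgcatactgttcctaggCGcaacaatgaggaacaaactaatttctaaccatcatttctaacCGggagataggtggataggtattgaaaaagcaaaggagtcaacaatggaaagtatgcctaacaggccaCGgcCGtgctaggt
Pik3r1 exon nearest to Gm36638, mm10 chr13:101757328-101757449, plus strand: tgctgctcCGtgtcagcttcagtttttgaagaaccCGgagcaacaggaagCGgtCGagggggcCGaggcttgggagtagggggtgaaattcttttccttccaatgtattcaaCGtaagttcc
Nkain1 intron, mm10 chr4:130569017-130569109, plus strand: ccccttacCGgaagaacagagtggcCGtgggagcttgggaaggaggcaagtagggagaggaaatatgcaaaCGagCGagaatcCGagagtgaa
Gm5441 intron, mm10 chr12:117304649-117304871, plus strand: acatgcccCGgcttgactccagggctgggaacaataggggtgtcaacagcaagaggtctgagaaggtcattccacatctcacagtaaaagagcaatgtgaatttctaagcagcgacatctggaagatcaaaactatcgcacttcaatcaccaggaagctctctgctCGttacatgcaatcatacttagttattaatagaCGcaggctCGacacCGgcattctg

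The CpGs printed for Rbfox3, which encodes the neuronal splicing regulator NeuN, were at 58.3% and 61.8% at the fifth and sixth and at 15.9% to 24.8% over the last 7 of 18. These are means over libraries that differed. At CpGs 15 and 16, ENR 1 had 46.4% and 56.5%, while STD 3 and ENR 3 had 0% at both. The 8 CpGs near Bcl11b, a zinc finger transcription factor of granule neurons, lay between 22.4% and 43.3%. In Gnas, whose locus encodes a G protein subunit from imprinted transcripts, the 9 CpGs lay within 41.4% to 45.9%. The stretch near Bmper, which encodes a secreted BMP-binding protein, began with 6 CpGs between 0% and 15.1% and ended with 2 CpGs at 99.0% and 98.2%. Intermediate tile means thus covered both even and stepped patterns along the sequence.

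The STD and ENR libraries numbered 3 stood apart before any comparison was made. The mean over the 11305 tiles was 30.7%, 30.1% and 23.6% in STD 1 to 3 and 30.5%, 29.1% and 20.5% in ENR 1 to 3. Library 3 minus the mean of the other libraries of its group was thus -6.87 percentage points in STD and -9.27 in ENR. In distal tiles above 50% these differences were -2.91 and -5.54 points, and in distal tiles below 10% they were -0.959 and -1.17 points. ENR 3 lay below all 4 libraries numbered 1 and 2 in 53.0% of the low-methylated distal tiles, STD 3 did so in 41.8% and both did so in 29.0%. The corresponding shares for distal tiles above 50% were 40.9%, 31.8% and 17.0%. In autosomal tiles of 10 to 50% nearer to a start, with a cytosine within 2 kb of one, they were 48.6%, 36.8% and 24.9%. There library 3 differed from the others of its group by -4.99 points in STD and -7.50 in ENR. The differences widened with the level of the tile, from -4.28 points (STD 3) and -5.55 points (ENR 3) in the 3749 tiles at 10 to 20% to -9.75 and -13.03 points in the 2098 tiles at 40 to 50%. What sets these libraries apart was not tested, and the main differences between the housing groups are given below with and without them.

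**Figure D1:**
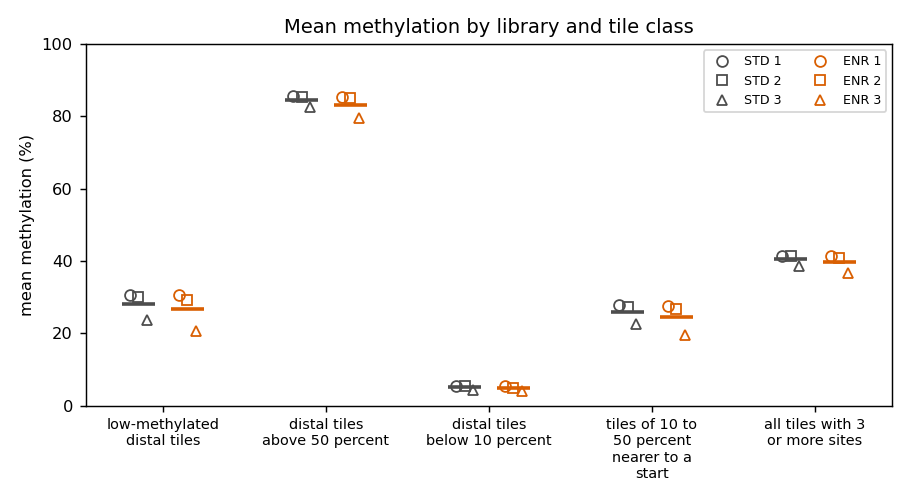
Mean methylation (%) of each library over 5 classes of 1 kb tiles. Symbols are single libraries (grey STD, orange ENR, 1 to 3 as circle, square and triangle) and bars are group means of 3. The triangles of libraries numbered 3 lie lowest in every class, with 23.6% and 20.5% in low-methylated distal tiles against 29.1% to 30.7% in the other libraries.

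Most tiles lay in the lower part of the range. There were 3749 tiles at 10 to 20%, 3009 at 20 to 30%, 2449 at 30 to 40% and 2098 at 40 to 50%. A tile nearest to Bmp7 was just inside the lower limit at 10.005%, and one nearest to Blk just outside at 9.995%. At the upper limit, tiles nearest to Foxc2 and Edar had 49.986% and 50.005%. The limits therefore cut through a continuous range of levels.

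Single cytosines in these tiles were mostly intermediate themselves. Of the 65322 cytosines 69.8% averaged 10 to 50% over the libraries, 18.1% were below 10%, 11.6% lay between 50 and 90% and 0.436% were at 90% or more. Every cytosine was at 10 to 50% in 3134 tiles (27.7%). In 1580 tiles (14.0%) at least one cytosine was below 10% and another above 50%, and in 114 tiles none was at 10 to 50%, so that the tile mean described no single cytosine. The median SD between the cytosines of a tile was 12.2 points, against 7.27 in distal tiles above 50% and 3.44 in distal tiles below 10%. At 8518 CpGs with both strands measured, the strands differed by a median of 5.54 points, and 74.3% of them agreed within 10 points.

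Among tiles with at least 10 cytosines, the most even and the most uneven were read in detail. An intronic tile of Btc, an EGF family growth factor, averaged 20.9% with an SD of 2.14 points over 10 cytosines, and an intronic tile of Ppp2r1b, a scaffold subunit of protein phosphatase 2A, 10.1% with an SD of 2.38 points. The third even tile, in 6430550D23Rik and Cep250, averaged 29.1% with an SD of 2.48 points. The uneven tiles were nearest to Fam107b, Bmper and Gm10069, averaged 36.6%, 32.8% and 49.3%, and had SDs of 45.5, 43.6 and 43.4 points. In the Bmper tile the library values were 36.5%, 31.5% and 32.4% in STD and 32.8%, 31.6% and 32.1% in ENR, which overlapped within a narrow range even though single cytosines ran from 0% to 99.0%. The stepped pattern was therefore present in every library at nearly the same mean.

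Libraries differed more in these tiles than in other distal tiles. The median range over the 6 libraries was 22.6 points, compared with 14.8 in distal tiles above 50% and 6.54 in those below 10%. A mean near 0 or 100 leaves less room for a range, so the classes are not equal in this respect. Among tiles with at least 5 cytosines, the steadiest was nearest to Gm25815, with 12.3%, 12.4% and 11.5% in STD and 13.1%, 11.8% and 13.6% in ENR. The most variable, in an intron of Ece1 and nearest to Gm13012, had 49.4%, 44.0% and 13.8% in STD and 83.3%, 47.3% and 0% in ENR. The averages of its 6 cytosines over the libraries nevertheless lay within 37.9% to 41.4%, so its cytosines were even while its libraries were not. The number of reads behind these values is unknown beyond the minimum of 10 per cytosine.

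The low-methylated distal tiles were CpG-poor and largely free of repeats. Their median G and C content was 48.5%, with 17 CpGs per kb and 0.287 of the CpGs that their C and G content would give by chance (the observed to expected ratio). The same ratio was 0.295 in distal tiles above 50% and 0.380 in those below 10%, and only 0.894% of the low-methylated tiles met a CpG island criterion over the whole tile (G and C of 50% or more and a ratio of 0.6 or more) compared with 12.2% of those below 10%. In the median tile 12.85% of bases lay in repeats or low-complexity sequence, against 25.6% above 50% and 12.1% below 10%. This median was 13.2% over all tiles and 11% in tiles of 10 to 50% nearer to a start, so it is not particular to these tiles. Of single cytosines, 4.97% per tile on average lay in such sequence, against 32.8% above 50%. Low-methylated distal tiles thus resembled unmethylated ones in repeat content and methylated ones in CpG content.

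The share of distal tiles that were low-methylated differed with repeat content. It was 38.8% of the 11036 distal tiles with under 10% of bases in repeats and 36.8% of those with 10 to 25%. It was 26.2% at 25 to 50%, 7.85% at 50 to 75% and 1.26% of the 4379 tiles with 75% or more. Of the tiles with 75% or more, 98.6% were above 50%.

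**Figure D2:**
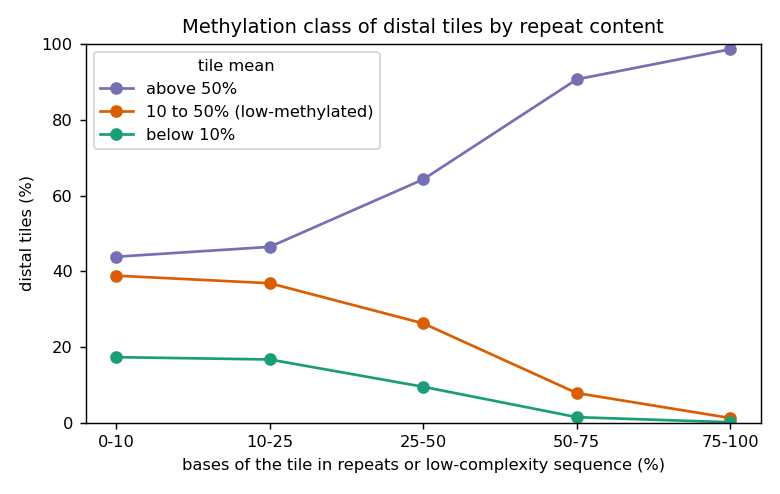
Share of autosomal distal tiles (%) whose mean methylation was above 50%, 10 to 50% or below 10%, by the percent of the tile's bases in repeats or low-complexity sequence. The low-methylated share goes from 38.8% in the bin with fewest repeats to 1.26% in the bin with most.

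By gene model, 48.0% of the tiles lay mainly in introns, 41.9% mainly between genes and 10.1% mainly in exons. The intron share was 35.1% in distal tiles above 50% and 37.1% in those below 10%. The median distance from a tile's closest cytosine to the nearest start was 13168 bp, against 15792.5 bp above 50% and 9185.5 bp below 10%. The share of low-methylated tiles was 31.9% of distal tiles at 2 to 5 kb, 29.1% at 5 to 10 kb, 29.95% at 10 to 50 kb, 26.7% at 50 to 100 kb and 20.3% beyond. Among autosomes it ran from 22.7% on chromosome 3 to 37.4% on chromosome 11. These figures are shares of tiles with measured cytosines, and RRBS covers only sequence near CCGG.

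The 5 tiles with the most cytosines were unlike the typical one, being CpG-rich and mostly exonic. A tile in an exon of Zfp316, a zinc finger gene, held 74 cytosines at 32.4%, with 35.8%, 35.9% and 30.5% in STD and 31.4%, 35.8% and 24.7% in ENR. The others were nearest to Fbxo41, Lrcol1, Ube2m and Cilp2, held 48 to 59 cytosines and averaged 10.1% to 15.9%. The typical low-methylated distal tile had a median of 5 cytosines.

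Methylation around the tiles was also intermediate where it was measured. Of 2313 measured tiles directly beside a low-methylated distal tile, 52.6% were at 10 to 50%, 25.9% below 10% and 21.5% above 50%, with a median of 22.5%. The neighbours of distal tiles above 50% had a median of 84.9%, and those of tiles below 10% had 4.76%. The 11305 tiles formed 10722 runs, of which 553 joined 2 or more tiles, and the longest joined 4. A neighbour without 3 measured cytosines ends a run, so these lengths depend on what RRBS covered. At distal cytosines 1 kb away the mean was 26.1% on the left and 25.6% on the right, at 5 kb 32.9% and 36.6%, and at 10 kb 38.5% and 37.0%.

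**Figure D3:**
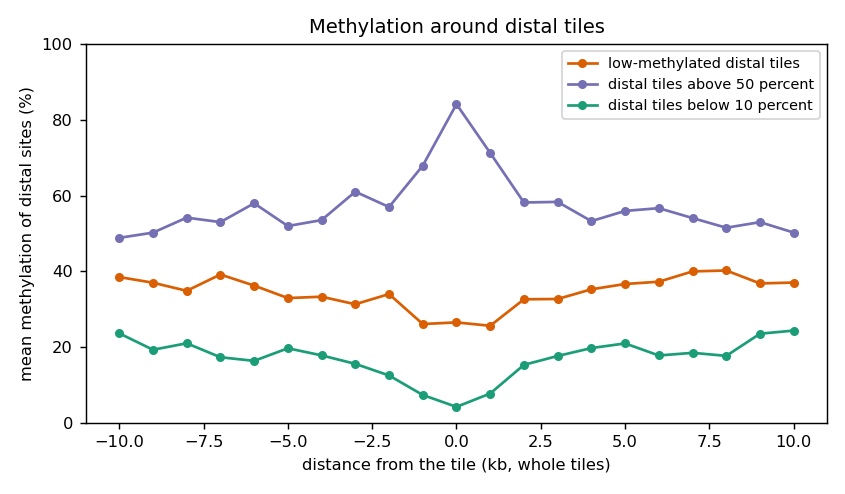
Mean methylation (%) of distal cytosines over all 6 libraries by distance in whole 1 kb tiles from low-methylated distal tiles, distal tiles above 50% and distal tiles below 10%. Cytosines within 2 kb of a transcription start were left out. Around low-methylated tiles the mean is about 26% within 1 kb and 37.0% to 38.5% at 10 kb.

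The 3 longest runs, each of 4 tiles, lay at Cilp2, near 4933415J04Rik and in Pnoc. Cilp2 encodes a cartilage matrix protein, and its run averaged 27.9%, 26.0% and 27.1% in STD and 26.1%, 37.2% and 31.9% in ENR. In Pnoc, which encodes the prepronociceptin precursor of an opioid-like peptide, it averaged 28.4%, 25.2% and 18.3% in STD and 30.6%, 21.9% and 12.6% in ENR. The run near 4933415J04Rik averaged 29.9%, 33.4% and 24.6% in STD and 37.1%, 26.6% and 21.6% in ENR. In all 3 runs the groups overlapped.

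Short sequence motifs were counted on both strands as a description of the tiles. The E-box CAGCTG, a form bound by basic helix-loop-helix factors, occurred in 49.4% of low-methylated distal tiles, in 37.8% of distal tiles above 50%, in 50.5% below 10% and in 42.5% of all tiles. The NEUROD-type E-box CAGATG occurred in 60.5%, against 57.8%, 53.4% and 51.8%. The paired half-sites of nuclear factor I were found in 4.46%, against 1.80%, 5.03% and 3.34%. The homeobox core TAATTA was found in 24.8%, against 21.2%, 21.1% and 18.4%. A match says only that these letters occur in the tile.

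Motifs rich in G and C were less frequent than in distal tiles below 10%. The GC box GGGCGG was present in 24.9% of low-methylated distal tiles, 47.2% of those below 10% and 41.5% of all tiles, and a core motif of the insulator protein CTCF in 6.72%, 11.03% and 7.40%. The AP-1 motif TGANTCA, bound by Fos and Jun proteins, was present in 25.9%, against 23.4% above 50% and 21.1% of all tiles. Among tiles with under 20% of bases in repeats and 45 to 50% G and C, a restriction made after the values were seen, CAGCTG was present in 50.2% of 2884 low-methylated and 44.3% of 3426 distal tiles above 50%. There TAATTA was in 27.9% against 20.5% and the nuclear factor I half-sites in 4.23% against 2.57%, while AP-1 was in 27.2% against 28.0%. Against the 922 distal tiles below 10% in the same range, which had TAATTA in 27.4%, the half-sites in 5.53% and AP-1 in 27.9%, the low-methylated shares were 27.9%, 4.23% and 27.2%, while CAGCTG was in 50.2% against 46.2%. Within that range of G and C and repeat content the AP-1 share was thus not higher, and the TAATTA share was 27.9% against 27.4% in tiles below 10%, a difference that was not tested.

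The nearest transcription start belonged to 7317 genes, of 18566 genes nearest to any distal tile. For 5000 of them it was nearest to exactly 1 low-methylated distal tile, and for 18 to at least 10. Protein-coding genes were nearest to 5990 of them. By the type of the nearest gene, 31.9% of the 18749 distal tiles at protein-coding genes were low-methylated, 37.4% of those at antisense genes, 30.7% at long intergenic RNAs, 21.2% at processed pseudogenes and 5.92% at unprocessed pseudogenes. The last were also the richest in repeats, with a median of 74.35% of bases.

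Genes were ranked by their number of low-methylated distal tiles after the values were seen. Rbfox3 had 18 of its 26 distal tiles in the range, with levels of 12.5% to 49.0%. Their mean was 35.8%, 30.8% and 24.7% in STD and 33.8%, 30.2% and 20.8% in ENR. Bcl11b had 17 of 28, with means of 29.1%, 30.2% and 28.6% in STD and 29.2%, 27.3% and 20.7% in ENR. In both genes the ENR and STD values overlapped.

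Tcf4, a basic helix-loop-helix transcription factor, had 15 of 22 distal tiles in the range, with a median of 18.95%. Gabbr2, a subunit of the GABA type B receptor, and Cmip, an adaptor protein, each had 14 of 20. The gene 4930589P08Rik had 13 of 25, the ephrin receptor gene Ephb2 13 of 19, the adhesion gene Sdk2 13 of 21, and the Rac exchange factor Tiam1 12 of 25. The zinc finger factor Prdm16 had 12 of 21. These counts were not corrected for gene length or for the number of CCGG sites.

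Lists of genes were read for how many of their distal tiles were low-methylated. The shares ran from 36.8% (28 of 76 tiles at interneuron genes) to 48.6% (51 of 105 at postsynaptic scaffold and synaptic adhesion genes), beside 29.3% of all distal tiles and 31.9% of those at protein-coding genes. Oligodendrocyte genes had 20 of 46 (43.5%), astrocyte genes 12 of 30 (40%), microglia and myeloid genes 20 of 50 (40%), and endothelial and vascular genes 21 of 56 (37.5%). Activity-regulated genes had 21 of 53 (39.6%), dentate granule neuron and hippocampal transcription factors 55 of 142 (38.7%), glutamate receptor genes 21 of 55 (38.2%) and imprinted genes 22 of 57 (38.6%). Genes that the study discusses had 47 of 105 (44.8%). The study chose several of these on the present samples and others, among them Tiam1, Tshz2 and Cux2, on its older mice, so the list is not independent of the data. Every list lay above the share of all distal tiles, and differences between lists were not tested.

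**Figure D4:**
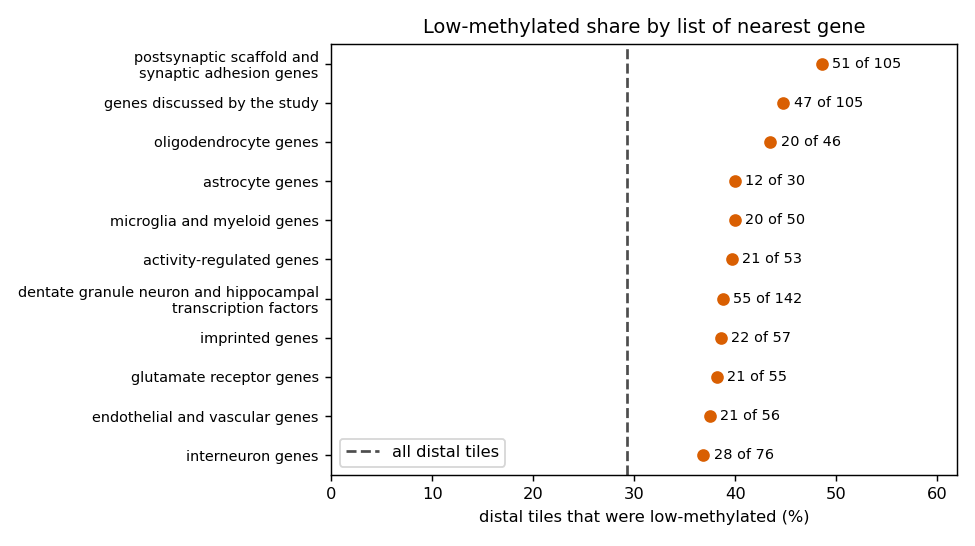
Share (%) of the distal tiles nearest to the genes of each list that were low-methylated, with the tile counts. The dashed line marks the 29.3% of all distal tiles, and every list lies to its right, between 36.8% and 48.6%.

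Among postsynaptic genes, Shank2 and Ptprs each had 7 of 10 distal tiles in the range. Shank2 encodes a scaffold of the postsynaptic density, and its tiles had a median of 32.9%. Ptprs encodes a receptor tyrosine phosphatase of synaptic adhesion, and its tiles had a median of 21.1%. All 3 distal tiles of Cadm1, a synaptic cell adhesion molecule, were in the range, at 11.1% to 48.0%. For Shank1 the tile with the most cytosines, in an exon 2381 bp from a start, had 12.99%, 11.3% and 16.9% in STD and 19.7%, 16.5% and 5.04% in ENR, and the groups overlapped.

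Of the granule neuron list, Cux2 had 7 of 23 distal tiles in the range and Calb2 4 of 5, with medians of 16.5% and 24.5%. Prox1, the homeobox factor that specifies granule neurons, had 2 of 4, at 16.5% and 41.8%. Within the interneuron list Sox6, a transcription factor of migrating interneurons, had 7 of 14.

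Activity-regulated genes are transcribed within minutes to hours of neuronal firing. Nptx2, a secreted pentraxin that gathers AMPA receptors, had 6 of 11 distal tiles in the range, and Gadd45g, a factor linked to DNA demethylation, 5 of 8. A tile near Dusp6, a phosphatase of ERK, had 50.01%, 47.2% and 43.1% in STD and 42.5%, 35.9% and 25.9% in ENR. All ENR values there lay below all STD values, and the difference of -11.96 points had an adjusted p of 1 in limma. It was -9.37 points without both libraries numbered 3. Gria1 and Grik4, subunits of AMPA and kainate receptors, each had 6 of 12.

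Genes of other cells of the tissue had tiles in the same range. Near Runx1, a myeloid transcription factor, a tile had 57.9%, 47.6% and 35.7% in STD and 50.3%, 57.0% and 33.7% in ENR, and the groups overlapped. C1qa, a complement subunit made by microglia, had 4 of 7 distal tiles in the range and Sall1, a microglial identity factor, 5 of 6.

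The comparison of ENR with STD mice asked whether housing changed methylation at these tiles. None of the 11305 passed an adjusted p of 0.05 in limma, and 0% of all 72222 tested tiles did, with a smallest adjusted p of 1. Without adjustment 359 tiles (3.18%) had p under 0.05, beside 3.98% of all tiles. Of these, 263 were lower in ENR (2.33%, beside 2.5% of all tiles) and 96 higher (0.849%, beside 1.48%). The low-methylated share at that limit was below that of all tiles here and under 13 of 16 alternatives, but above it under 3, among them the fit without a variance trend (5.57% against 4.10%) and that without STD 3 (4.29% against 4.12%). At single cytosines, 0 of 64701 passed the adjusted limit and 1721 (2.66%) had an unadjusted p under 0.05, beside 2.68% of all 615152 cytosines tested. Single cytosines over 25 points lower in ENR numbered 2186 (3.38%, beside 1.79% of all), and those over 25 points higher 1450 (2.24%, beside 1.02%). In tiles of 10 to 50% nearer to a start these shares of cytosines were 3.13% and 2.34%.

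Differences of group means were wide in these tiles without being separated from the spread between mice. Means over 25 points lower in ENR were found in 82 tiles (0.725%, beside 0.342% of all tiles), and over 25 points higher in 32 (0.283%, beside 0.119%). Without both libraries numbered 3 these counts were 137 (1.21%) and 102 (0.902%), beside 0.411% and 0.312% of all tiles. The direction of the split depended on the library left out, with 218 lower and 34 higher without STD 3 but 68 lower and 137 higher without ENR 3. This split was not counted over all tiles, so it cannot be called particular to these tiles. In 585 tiles every ENR library lay below every STD library (5.17%, beside 5.3% of all tiles), and in 264 every one lay above (2.34%, beside 3.58%). In tiles of 10 to 50% nearer to a start, 0.55% were over 25 points lower and 0.242% higher, and 5.72% and 2.66% were separated. The groups of low-methylated distal tiles were therefore separated no more often than over all tiles. Large differences of means were more frequent than over all tiles, as they also were in the intermediate tiles nearer to a start. At the middle of the range a percentage has more room to vary than near 0 or 100.

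Averaged over all low-methylated distal tiles, methylation in STD mice was 28.1% ± 3.98 (SD, n = 3) and that in ENR mice 26.7% ± 5.40 (SD, n = 3). This difference of -1.46 points was smaller than either SD. It was -0.658 without both libraries numbered 3, -3.75 without STD 3 alone and 1.63 without ENR 3 alone. Of the 11305 tiles 57.6% were lower in ENR, beside 54.7% of all tiles, and 52.5% beside 51.3% without both libraries numbered 3. The median difference per tile was -1.23 points, beside -0.210 over all tiles, and -0.464 beside -0.0599 without both libraries numbered 3.

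The widest differences in each direction were read among the tiles with at least 5 cytosines and groups that did not overlap. An exonic tile of Pik3r1, a regulatory subunit of phosphoinositide 3-kinase, had 65.6%, 66.2% and 49.2% in STD and 20.3%, 20% and 27.0% in ENR. Its 7 cytosines were all lower in ENR, and the difference was -37.9 points (limma, adjusted p = 1). The tile next to it averaged 56.5%. In an intron of Nkain1, which encodes a protein that interacts with the sodium pump, STD had 59.7%, 59.1% and 26.4% and ENR 18.5%, 11.3% and 12.8%, a difference of -34.2 points. The Pik3r1 difference ran from -43.5 to -35.0 and the Nkain1 difference from -45.2 to -28.6 when each library was left out in turn. Without both libraries numbered 3 they were -45.7 and -44.5.

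In an intron of Cdkal1, a tRNA-modifying enzyme gene, STD had 83.6%, 55.4% and 27.8% and ENR 26.8%, 9.09% and 12.0%. The difference of -39.6 points was -25.6 without STD 1, a library that lay far above the others. In an intron of Med9, a Mediator subunit gene, STD had 55.9%, 81.6% and 58.0% and ENR 47.0%, 18.8% and 13.5%. The lowest STD and the highest ENR value were thus 1 point apart in Cdkal1 and farther apart in Med9. Without both libraries numbered 3 the differences were -51.5 points in Cdkal1 and -35.9 in Med9.

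The widest differences towards higher values in ENR were smaller. In an intron of Gm5441, STD had 34.7%, 37.1% and 33.2% and ENR 72.9%, 66.6% and 49.1%, a difference of 27.8 points (limma, adjusted p = 1). In an exon of Vps18, whose product tethers vesicles to lysosomes, STD had 20.5%, 22.4% and 12.8% and ENR 45.4%, 55.1% and 28.3%. An intergenic tile nearest to Gm49523 had 30.8%, 33.2% and 22.5% in STD and 43.7%, 76.4% and 55.9% in ENR. One nearest to Gm13056 had 5.95%, 6.94% and 0% in STD and 44.0%, 10.4% and 25.8% in ENR, and its difference of 22.4 points was 13.8 without ENR 1. Without both libraries numbered 3 the differences of these tiles were 33.8 points (Gm5441), 28.8 (Vps18), 28.0 (Gm49523) and 20.7 (Gm13056). As these tiles were picked for separated groups, their separation is no support for an effect of housing.

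**Figure D5:**
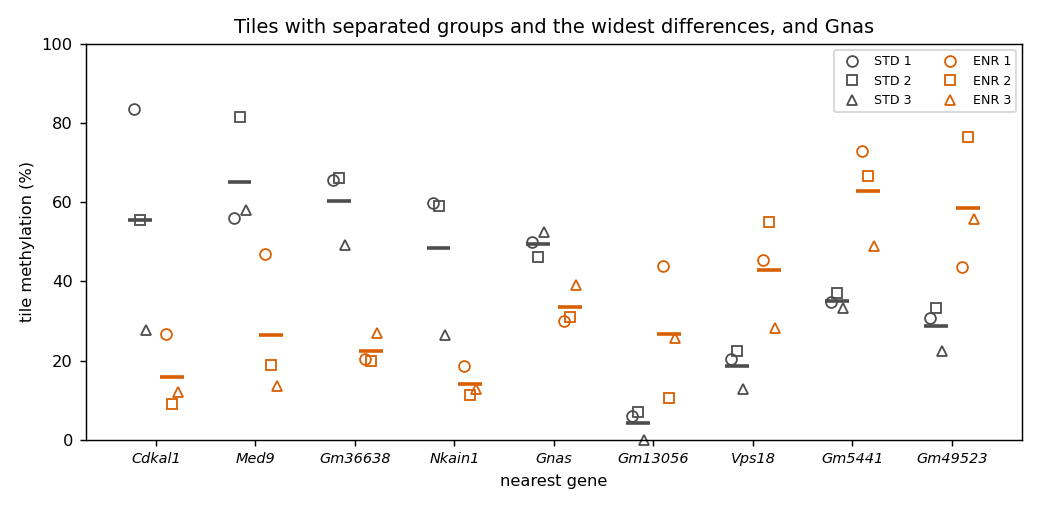
Methylation (%) of each library in the 8 named tiles with separated housing groups and in the Gnas tile, by nearest gene and in order of the difference. Symbols are libraries (grey STD, orange ENR, 1 to 3 as circle, square and triangle) and bars are group means of 3. The tile nearest to Gm36638 lies in an exon of Pik3r1, and differences run from -39.6 points at Cdkal1 to 29.8 points at Gm49523.

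Each list had its tile with the most cytosines named. That of the imprinted list, the Gnas tile, also had groups that did not overlap. It was read further with its values known, so its separation is no support for an effect of housing. It lay over exon and intron sequence 2142 bp from a start, and its values were 49.9%, 46.3% and 52.5% in STD and 30.04%, 31.1% and 39.1% in ENR. All 16 cytosines were lower in ENR. They are not independent measures, as CpGs 1 to 5 of the printed stretch all had 60.7% in STD 3. The group means were 49.5% ± 3.13 (SD, n = 3) and 33.4% ± 4.94 (SD, n = 3). Their difference of -16.1 points had an unadjusted p of 0.0840 and an adjusted p of 1 in limma. The difference stayed between -19.0 and -14.5 when single libraries were left out and was -17.5 without both numbered 3. The tile before it averaged 41.0%, and over all 22 low-methylated distal tiles of imprinted genes the difference was -0.581 points. Of these 22 tiles, 1 was separated lower in ENR and 0 higher, beside 5.3% and 3.58% of all tiles.

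By list, the mean ENR minus STD difference was widest at astrocyte genes, the list with the fewest low-methylated distal tiles (12, beside 20 to 55). Their 12 tiles averaged 31.4%, 31.6% and 19.2% in STD and 20.5%, 22.6% and 15.4% in ENR, a difference of -7.90 points, and -9.97 without both libraries numbered 3. The STD 3 value lay below 2 of the ENR values, so the groups overlapped. In 11 of the 12 tiles the ENR mean was lower, beside 57.6% of all low-methylated distal tiles and 54.7% of all tiles. An unadjusted p under 0.05 in limma was found for 2 of them, beside 3.18% and 3.98%. The median difference was -6.67 points, beside -1.23 in all low-methylated distal tiles. Leaving out single libraries gave -12.0 to -5.81 points. The list was read in detail for its wide difference, and its tiles come from the same 6 mice. Counts over its tiles are therefore no support for an effect of housing.

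Those 12 tiles lay near 9 genes, of which Slc1a3, a glial glutamate transporter, held 4, with a mean difference of -7.29 points. The tile near Clu, which encodes the chaperone clusterin, differed by -24.3 points, the one near Sox9, a glial transcription factor, by -11.8, and the one near Slc1a2, the main glial glutamate transporter, by -10.3. The tile near Gfap, the astrocytic intermediate filament, differed by -4.53 points and that near Fgfr3, a growth factor receptor, by 2.72. Without both libraries numbered 3 the differences were -11.4 points for Slc1a3, -21.9 for Clu, -14.3 for Sox9, -15.9 for Slc1a2, -7.16 for Gfap and 4.23 for Fgfr3. At S100b, a calcium-binding protein of astrocytes, the tile printed above had 16.3%, 14.7% and 10.6% in STD and 8.56%, 14.8% and 6.01% in ENR. The proportion of astrocytes in the dissected tissue was not measured, and its part in these differences was not tested.

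The other lists differed by less. Mean differences were -3.52 points at genes discussed by the study, -2.87 at granule neuron and hippocampal transcription factors, -1.61 at microglia and myeloid genes, -1.32 at activity-regulated genes and -0.984 at interneuron genes. They were -0.460 at postsynaptic genes, -0.0727 at oligodendrocyte genes, 0.101 at endothelial genes and 1.71 at glutamate receptor genes. Without both libraries numbered 3 the same differences were, in that order, -2.45, -2.10, -0.325, -0.171, 0.0459, -0.105, 0.289, -0.0770 and 1.29 points, and that of imprinted genes was -0.124. Without ENR 3 alone the difference at genes discussed by the study was -0.769 and that at granule neuron and hippocampal transcription factors -0.590. For all the other lists of this paragraph and for imprinted genes, the sign of the mean difference depended on which library was left out.

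An unadjusted p under 0.05 in limma was found for 2 of 47 tiles at genes discussed by the study, 1 of 55 at granule neuron and hippocampal transcription factors, 1 of 20 at microglia and myeloid genes and 1 of 21 at glutamate receptor genes. It was found for 0 tiles at activity-regulated, interneuron, postsynaptic, oligodendrocyte, endothelial and imprinted genes. These counts stand beside 3.18% of all low-methylated distal tiles and 3.98% of all tiles. No tile of any list passed the adjusted limit.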

How the data were processed

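The authors trimmed the RRBS reads, aligned them to mm10 and kept cytosines with at least 10 reads. The submitters' processing notes name Trim Galore 0.4.0, cutadapt 1.8.1, Bismark 0.16.1 and methylKit 1.5.2. The study's methods give other versions of Trim Galore and Bismark, and which were used is not settled here. The table the authors deposited gives the percent of methylated reads at 890041 CpG cytosines in each library, with 0 missing values and no read numbers, so the depth per value is unknown and no counting interval is given. Per-library columns left unused numbered 0.

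Percentages were averaged over the cytosines of each 1 kb tile, cytosines weighing equally. Distances used GENCODE M21 starts of any transcript, and sequence and repeat content the soft-masked RefSeq GRCm38 genome, the build of the table. ENR was compared with STD by limma 3.58.1 in R 4.3.3 (lmFit, eBayes with a variance trend, two-sided) on all 72222 varying tiles, with Benjamini-Hochberg adjustment. The procedure was also run on simulated data, with shifts from a low starting level that were larger than most differences here. The outcome is not given, and it does not measure the power for the differences reported here. Single means were not tested.

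The tiles, gene lists, motifs and tests were chosen with earlier results of these data known. Named tiles were those with the most cytosines, the longest runs, the widest differences among tiles with separated groups and at least 5 cytosines (4 in each direction), the tile with the most cytosines in each list, the most and least even and variable, and those beside the limits. The tiles of Rbfox3 and Bcl11b were added after the values were seen. Alternatives changed the variance model, scale, normalization, tiles, limits and libraries. A few tiles that the rule named are not reported here.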

Additional observations from a re-analysis of the deposited data

How the results depend on the processing

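The count of tiles with an adjusted p under 0.05 in limma stayed at 0 under all 16 alternatives, with smallest adjusted p-values down to 0.261. At an unadjusted p under 0.05 the 359 low-methylated distal tiles (3.18%, beside 3.98% of all tiles) became 630 without a variance trend (5.57%, beside 4.10%) and 123 with at least 5 cytosines per tile (2.16%, beside 4.07%). Without single libraries they were 280 to 485 (2.48% to 4.29%, beside 3.45% to 5.35% of all tiles). With the replicate number as a block they were 567 (5.02%, beside 4.55%), with 0 called. Deviations of same-numbered mice correlated at 0.121, 0.0636 and 0.229, those of differently numbered mice at -0.165 to 0.0807, and the mice numbered 2 did not correlate best with each other. As each number marks separate mice and not every pair was over 0.1, they were not treated as pairs. The count over 25 points (114) was 710 at 15 points, 5 at 40 points, 68 when groups also had to be separated, 239 without both libraries numbered 3, 155 to 252 without single libraries, and 107 after quantile normalization, with 59 of them lower. Apart from the setting without both libraries numbered 3, the matching shares over all tiles were not counted for these alternatives, so the counts describe these tiles only. The number of tiles (11305) was 5701 with at least 5 cytosines, of which 168 rather than 295 were nearest to listed genes, and 5458 at 20 to 40%, with 120. It was 10887 by libraries 1 and 2 alone, 10368 of them shared. The mean difference of -1.46 points became 0.133 after quantile normalization and lay between -3.75 and 1.63 without single libraries. The cause of these changes was not tested beyond what fewer tiles or libraries bring. Read numbers were not used, so a cytosine read 10 times counts like a deeply read one.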

Other observations

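Distal tiles of chromosome X, which the 11305 tiles leave out, held a smaller share of intermediate levels. Of 1404 distal tiles on X, 176 (12.5%) averaged 10 to 50%, 86.0% were above 50% and 1.42% below 10%, compared with 29.3%, 58.1% and 12.6% on the autosomes. The intermediate tiles of X had a median of 12.55% of bases in repeats, near the 12.85% of the autosomal ones. All mice were female, and the difference between chromosomes was not tested.

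Intermediate tiles nearer to a start lay beside less methylated sequence. The 4545 tiles at 10 to 50% with a cytosine within 2 kb of a start had neighbours with a median of 5.20%, of which 60.9% were below 10%, compared with 25.9% of the neighbours of low-methylated distal tiles. Their median SD between cytosines was 13.2 points and their median range over libraries 19.2 points, compared with 12.2 and 22.6 points in the distal ones. These differences were not tested.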
